A study of Mus musculus with 4 samples.

Results

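The BCL2 family genes Bcl2, Bcl2l1, Mcl1, Bax, Bak1, Bid, Bad, Bcl2l11, Bbc3 and Pmaip1 were chosen by name, and all 10 were found among the 54532 genes counted. The study sequenced RNA of cells that the labels call fibroblasts of primary mouse breast tumours (CAFs), detected with an antibody to PDGFRa, from Dll1-mCherry MMTV-PyMT mice, which develop mammary carcinoma from a viral oncogene driven in mammary epithelium, on the C57BL/6 strain. There were 2 unirradiated libraries (A and B) and 2 libraries from tumours given 6 Gy of targeted radiation (A and B), and both groups carry the tumour transgene and the Dll1-mCherry label. Titles of both groups carry day 6, and the treatment label of the irradiated group gives targeted radiation at day 6. The time from radiation to collection and the age of the mice are not given in the labels used here. Whether A and B are different animals is not stated. The p-values thus rest on the spread of these 4 libraries alone, and that spread may be technical.

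The family decides whether the outer mitochondrial membrane is breached during apoptosis. Pro-survival members (BCL2, BCL-XL encoded by Bcl2l1, and MCL1) hold the effectors BAX and BAK in check, and BH3-only members either block the pro-survival proteins or activate the effectors. Cytochrome c released through the breached membrane activates APAF1 and caspases. Several of these genes are known transcriptional targets of p53, the factor stabilised by DNA damage, among them Bax, Bbc3 and Pmaip1. Much of the family's control acts on protein stability, splicing and location, which gene-level RNA counts do not show.

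What the members share is the BH3 core, a short helix by which they bind one another, and it is shown here because the roles compared below all turn on it. In the longest annotated coding transcript of each gene, codons for leucine, any 3 residues, then glycine, alanine or serine, then aspartate occurred exactly once in each of the 9 members searched. The 30 bases of each are given from GENCODE M21 transcripts, 5′ to 3′ on the coding strand, with positions on GRCm38 (mm10). Capitals mark the leucine codon and the final pair of codons of the core.
Bcl2 (chr1:106712578-106712607, minus strand): ctgaccCTCcgccgggctGGGGATgacttc
Bcl2l1 (chr2:152829700-152829729, minus strand): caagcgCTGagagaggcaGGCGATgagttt
Mcl1 (chr3:95659430-95659459, plus strand): gagaccCTGcggcgcgtgGGCGACggcgtg
Bax (chr7:45466000-45466029, minus strand): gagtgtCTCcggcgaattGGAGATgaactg
Bak1 (chr17:27022534-27022563, minus strand): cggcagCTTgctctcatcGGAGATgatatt
Bid (chr6:120897292-120897321, minus strand): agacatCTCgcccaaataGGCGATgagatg
Bad (chr19:6950786-6950815, plus strand): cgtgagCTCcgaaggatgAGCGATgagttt
Bcl2l11 (chr2:128147144-128147173, plus strand): caggagCTGcggcggatcGGAGACgagttc
Bbc3 (chr7:16313767-16313796, plus strand): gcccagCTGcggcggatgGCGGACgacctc
In 7 of these 9 the next-to-last capital codon encodes glycine, as in all 3 pro-survival members and both effectors. The exceptions, Bad and Bbc3, are both BH3-only genes.

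Total counts ranged from 13011489 to 23763830 per library. Levels are in CPM, the count relative to library size as scaled by the TMM method, and levels of different genes are compared only as CPM per kilobase of exon. Irradiated and unirradiated libraries were compared over 15961 genes with the quasi-likelihood test of edgeR, p-values were adjusted by Benjamini-Hochberg, and a gene was called at an adjusted p under 0.05. The contrast was broad, with 33.9% of tested genes called higher and 32.5% called lower. Markers of several cell types moved with the groups. The 10 fibroblast markers summed to between 500.4 and 535.5 CPM in the unirradiated and between 1661 and 1678 CPM in the irradiated libraries, with 8 called higher and 0 lower. Among them Pdgfra, the gene of the protein by which the cells were detected, was named after its values were seen. It was at 5.429 and 5.744 CPM in the unirradiated and 22.91 and 24.57 CPM in the irradiated libraries (log2 fold change 2.10). Of 12 macrophage and monocyte markers 11 were higher (sums of 328.1 to 329.4 and 825.5 to 826.8 CPM), and of 8 endothelial markers all 8 (65.08 to 65.86 and 158.1 to 169.9 CPM). Of 6 tested T and NK cell markers 5 were lower (sums over the 10 listed of 11.16 to 11.33 and 4.33 to 4.398 CPM). Of 5 tested B and plasma cell markers 4 were lower and 1 higher (10.19 to 10.86 and 8.675 to 9.141 CPM over 7 listed), and of 8 neutrophil markers 6 were lower and Ltf higher (sums of 373.0 to 379.9 and 2141 to 2144 CPM, most of it Ltf). The irradiated libraries differed in neutrophil genes, with S100a9 at 14.91 CPM in A and 2.179 CPM in B and Ngp at 9.742 and 0.6456 CPM, and only 2 of the 6 falls passed without irradiated B. Of 6 proliferation markers 4 were higher (679.1 to 682.9 and 859.8 to 886.5 CPM). The cells are labelled fibroblasts, yet 12 epithelial markers summed to between 8616 and 9445 CPM in every library, and 3 were higher and 6 lower, or 6 higher and 4 lower with the length trend removed. No marker was at 0 counts in all libraries. In such mixed RNA, fewer cells of a type and less RNA per cell cannot be told apart, and the part of these shifts in the results below was not tested.

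Irradiated libraries held more RNA of the pro-survival genes Bcl2l1 and Mcl1 and less of all 5 BH3-only genes. The effectors moved apart in the reported fit, with Bax lower and Bak1 higher, but DESeq2 called neither. With the length trend removed, Bax was at 0.10 and Bak1 at 0.33. Of the 10 members 3 were called higher (Bcl2l1, Mcl1, Bak1) and 6 lower (Bax, Bid, Bad, Bcl2l11, Bbc3, Pmaip1), and Bcl2 did not pass. With 66.4% of all tested genes called in one direction or the other, 9 of 10 is a count to be read beside a high background. The libraries of the groups did not overlap for the same 9, as for 82.5% of tested genes (41.5% higher and 40.9% lower in both irradiated libraries). DESeq2, which called 22.8% of its genes higher and 17.4% lower, called 2 members higher (Bcl2l1, Mcl1) and 4 lower (Bid, Bcl2l11, Bbc3, Pmaip1). The changes were modest. No member changed 2-fold, which 20.9% of tested genes did, and 8 of the 10 changed less than the median tested gene, whose absolute log2 fold change was 0.46. The median log2 fold change was 0.29 for the 3 pro-survival, -0.02 for the 2 effector and -0.44 for the 5 BH3-only members, against -0.0042 for all tested genes. The range of the pro-survival members, -0.02 to 0.34, lay above that of the BH3-only members, -0.79 to -0.30. These ranges overlapped once the trend of fold change with gene length was removed, where Bcl2 was at -0.24, Bbc3 at -0.23 and Bad at -0.11.

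Mcl1, whose short-lived protein binds most BH3-only proteins and BAK, was by far the most abundant member. Its level was 620.5 (A) and 591.9 CPM (B) without radiation and 740.8 (A) and 741.9 CPM (B) after it, the order in which all values below are given. Both irradiated libraries lay above both unirradiated ones, and the log2 fold change was 0.29 (SE 0.0391, adjusted p = 2.14e-09), a rise of 22.2%. Per kilobase, its level in the unirradiated group was 177.4 ± 5.91 CPM (SD, n = 2). Averaged over all libraries, the level of Mcl1 per kilobase exceeded that of 98.6% of tested genes. Mcl1 alone made up 50.9% and 48.8% of the summed CPM per kilobase of the 10 members in the unirradiated libraries, and 58.1% and 57.5% in the irradiated ones. Mcl1 lies on chromosome 3 (95658788 to 95663176).

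Bcl2l1 (chromosome 2, 152780668 to 152831728) encodes BCL-XL and, by alternative splicing, the death-promoting BCL-XS, which these counts do not separate. Its level was 104.8 and 112.7 CPM in the unirradiated and 134.3 and 139.3 CPM in the irradiated libraries. The groups did not overlap, and the gene rose by 26.3% (log2 fold change 0.34, SE 0.0544, adjusted p = 2.00e-07). Bcl2 (chromosome 1, 106538178 to 106714274), the founding member of the family and a survival factor of lymphocytes, was at 40.98 and 43.37 CPM and at 39.09 and 43.53 CPM. Its groups overlapped and no change was found (log2 fold change -0.02, SE 0.0780, adjusted p = 0.86), with an approximate 95% interval of -0.17 to 0.14. With the length trend removed, Bcl2, the longest member at 9157 bases of exon, was called lower at -0.24 (adjusted p = 0.0063, range over 15 alternatives 0.00233 to 1). Per kilobase it was the least abundant member in the unirradiated group at 4.606 ± 0.184 CPM (SD, n = 2).

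**Figure D1:**
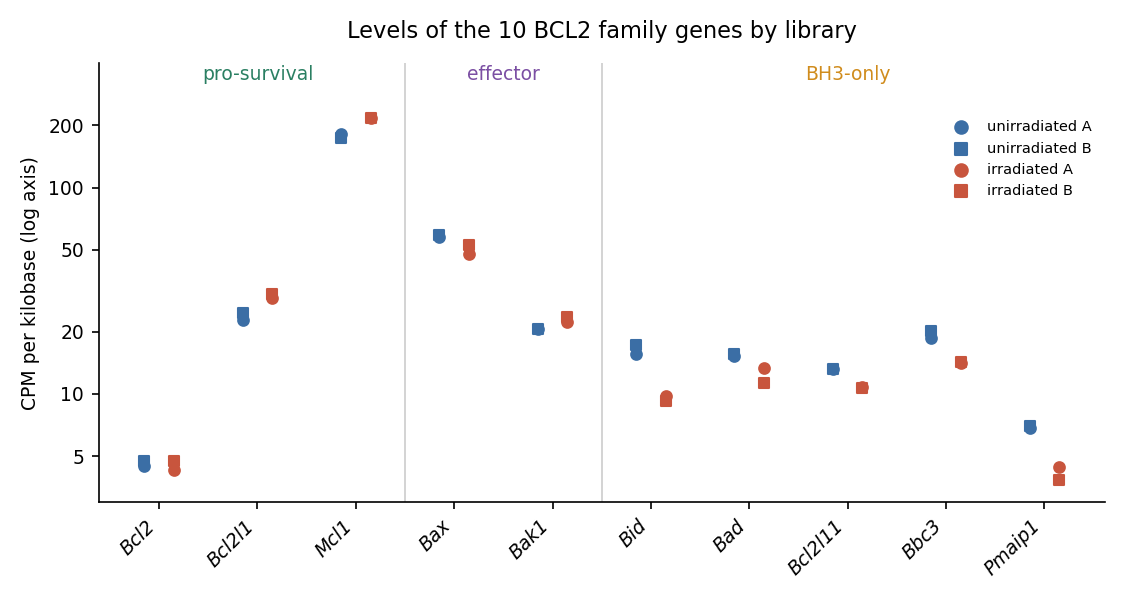
Levels of the 10 genes in CPM per kilobase of exon (vertical log axis), by gene and role, with circles for replicate A and squares for replicate B in the unirradiated (blue) and irradiated (red) group. Mcl1 stands highest in every library, and the red points lie below the blue ones for all 5 BH3-only genes.

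The effectors, which form the pores in the outer membrane, did not move together in the reported fit. Bax (chromosome 7, 45461697 to 45466898) was at 90.85 and 92.80 CPM in the unirradiated and at 75.11 and 82.63 CPM in the irradiated libraries. Both irradiated libraries were lower, and Bax fell by 13.7% (log2 fold change -0.21, SE 0.0603, adjusted p = 0.00166). This call was weak in other settings. Without irradiated A it was -0.14 (adjusted p = 0.0852), with DESeq2 -0.18 (adjusted p = 0.086), and after removal of the length trend its direction turned to 0.10 (adjusted p = 0.137), within a range of 0.000346 to 1 over 15 alternatives. Bax is the shortest member at 1576 bases of exon.

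Bak1 (chromosome 17, 27019810 to 27029009), the effector that resides on mitochondria, was at 49.51 and 49.51 CPM and at 53.88 and 56.77 CPM. Both irradiated libraries were higher (log2 fold change 0.16, adjusted p = 0.036, SE 0.0704). With the length trend removed the log2 fold change was 0.33 (adjusted p = 4.19e-05). The call was lost without unirradiated A (0.17, adjusted p = 0.119), without unirradiated B (0.17, adjusted p = 0.085) and without irradiated B (0.13, adjusted p = 0.204). It was also lost with DESeq2 (0.20, adjusted p = 0.131), and the adjusted p ranged from 4.96e-06 to 1 over 15 alternatives. Bak1 shares 437 bases, 18.2% of its exon length, with Ggnbp1 on the other strand, which had 223 and 141 counts in the unirradiated and 72 and 135 in the irradiated libraries. The library kit does not mark strand, so reads of this stretch cannot be assigned to one gene.

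The sequence before the Bax start site is shown because Bax is a textbook p53 target that was not higher here. A 300-base window from 250 bases before to 50 bases after each annotated start (RefSeq, GRCm38.p6) was searched for the p53 half-site, which reads the same on both strands. At least 1 half-site was present in 8.36% of 32851 windows, and among the 15 windows of 9 members only that of Bax held one. It began 201 bases before the start.
Bax (chr7:45467070-45467119, minus strand, half-site in capitals): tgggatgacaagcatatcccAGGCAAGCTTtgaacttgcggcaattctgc
A match of letters is a description and not a measured site, and more distant sequence was not searched.

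All 5 BH3-only members were called lower and had no overlap between groups, against a background of 32.5% of tested genes called lower and 40.9% with both irradiated libraries lower. Bid (chromosome 6, 120891930 to 120916853), which links death receptors to mitochondria after cleavage by caspase 8, fell most. It was at 55.66 and 61.08 CPM in the unirradiated and at 34.52 and 32.84 CPM in the irradiated libraries, and it fell by 42.2% (log2 fold change -0.79, SE 0.0754, adjusted p = 2.11e-14). Bid was also the only member past the threshold in a test for changes over 1.5-fold (adjusted p = 0.00489, the highest over 15 alternatives, the lowest being 1.8e-18), which 23.7% of tested genes passed. It shares 628 bases, 17.7% of its exon length, with Bcl2l13 on the other strand, a gene called higher (0.29).

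Pmaip1 encodes NOXA, which binds MCL1 and promotes its degradation. The 4 libraries held 302, 230, 195 and 252 counts, or 18.02 and 18.61 CPM without and 11.73 and 10.17 CPM with radiation. Both irradiated libraries were lower, and Pmaip1 fell by 40.8% (log2 fold change -0.76, SE 0.126, adjusted p = 3.79e-07). Bbc3 (chromosome 7, 16308393 to 16318205) encodes PUMA, which binds every pro-survival member. Its level was 39.73 and 42.80 CPM and then 30.07 and 30.46 CPM, and it fell by 26.3% (log2 fold change -0.44, SE 0.0821, adjusted p = 4.04e-06). After removal of the length trend the log2 fold change of Bbc3 was -0.23, still past the threshold.

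Bcl2l11 (chromosome 2, 128126038 to 128162547) encodes BIM, a direct activator of BAX and BAK that FOXO factors induce when growth signals fall. It was at 106.2 and 106.6 CPM in the unirradiated and 86.60 and 85.70 CPM in the irradiated libraries. The replicates lay within 1 CPM of each other, and the gene fell by 19.0% (log2 fold change -0.30, SE 0.0569, adjusted p = 4.17e-06). Its exons span 8029 bases, and its change was larger, -0.50, after removal of the length trend.

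Bad (chromosome 19, 6941861 to 6951898), whose product binds BCL-XL and BCL2 and is held off by phosphorylation, was the least stable BH3-only result. It was at 30.78 and 31.23 CPM and at 26.88 and 22.63 CPM, lower in both irradiated libraries (log2 fold change -0.34, SE 0.0938, adjusted p = 0.00118). Without irradiated B the log2 fold change was -0.19 (adjusted p = 0.152), with DESeq2 -0.29 (adjusted p = 0.108) and after removal of the length trend -0.11 (adjusted p = 0.32), none past the threshold. Its adjusted p ranged from 0.000346 to 1 over 15 alternatives. Bad shares 524 bases, 26.1% of its exon length, with Gpr137 on the other strand.

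**Figure D2:**
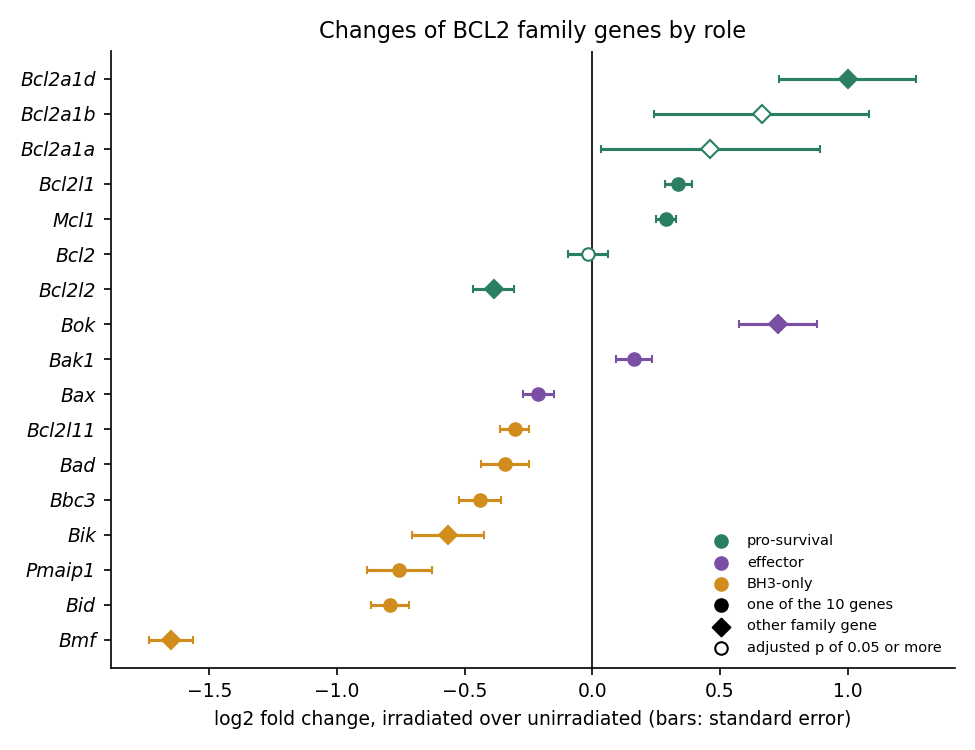
Log2 fold change of irradiated over unirradiated libraries with its standard error (horizontal axis) for the 10 genes (circles) and 7 other family genes (diamonds), coloured by role, with open symbols where the adjusted p was 0.05 or more. All 7 tested BH3-only genes lie left of 0, from -1.65 for Bmf to -0.30 for Bcl2l11.

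In the unirradiated group the order of levels in CPM per kilobase was Mcl1, Bax, Bcl2l1, Bak1, Bbc3, Bid, Bad, Bcl2l11, Pmaip1 and Bcl2, with group means from 177.4 down to 4.606. The 2 libraries of each gene lay apart from those of its neighbour throughout. In the irradiated group the leading 5 kept their order and Bid moved from rank 6 to rank 8, at 9.488 ± 0.334 CPM per kilobase (SD, n = 2). Pmaip1, at 4.137 ± 0.417, overlapped Bcl2, at 4.512 ± 0.343, and these were the only neighbours that overlapped. The levels divide by full exon length, of which Bax, Bak1, Bid and Bad share 12.2%, 18.2%, 17.7% and 26.1% with another gene. How reads of shared stretches were counted is not given, so the order of close neighbours is uncertain.

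Shares of the 10-gene sum of CPM per kilobase do not depend on how libraries are scaled, and are given as a description. Pro-survival members held 58.53% and 57.01% of the sum without radiation and 67.13% and 66.79% after it. BH3-only members held 19.55% and 20.62%, then 14.08% and 13.08%. Effectors held 21.92% and 22.37%, then 18.79% and 20.13%. The groups did not overlap for any role, as for 82.5% of tested genes. These shares follow from the changes of the single genes given above and add no separate evidence. They were not computed with the length trend removed. Without Mcl1, pro-survival members held 15.58% and 16.11%, then 21.50% and 21.89%, and BH3-only members 39.79% and 40.23%, then 33.63% and 30.76%. The effector share turned direction without Mcl1, at 44.62% and 43.66%, then 44.87% and 47.35%.

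**Figure D3:**
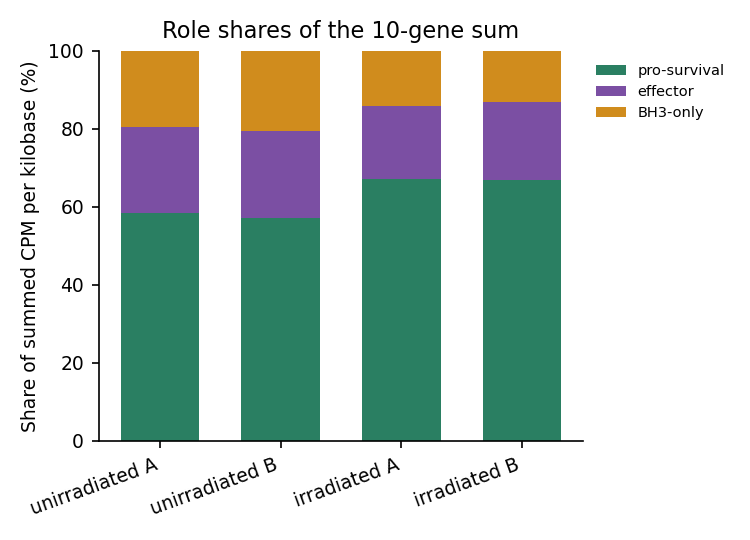
Share of the summed CPM per kilobase of the 10 genes (vertical axis, percent) held by pro-survival, effector and BH3-only genes in each library. The pro-survival share is 58.53% and 57.01% in the unirradiated and 67.13% and 66.79% in the irradiated libraries.

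Ratios within a library pair a death-promoting gene with a pro-survival one. With 2 against 2 libraries an exact two-sided permutation p cannot go below 0.33, so none was tested. The Bax to Bcl2 ratio, a common index of apoptotic priming, was 3.69 and 3.64 in log2 in the unirradiated and 3.48 and 3.46 in the irradiated libraries, on CPM per kilobase. As a plain quotient of CPM per kilobase, Bax to Bcl2l1 was 2.52 and 2.40, then 1.63 and 1.73. The ratio of Bbc3 to Bcl2l1 was 0.819 and 0.820, then 0.483 and 0.472. Bcl2l11 to Mcl1 was 0.0729 and 0.0766, then 0.0498 and 0.0492, and Pmaip1 to Mcl1, the pair in which NOXA binds MCL1, was 0.0375 and 0.0406, then 0.0204 and 0.0177. All 5 ratios were lower in both irradiated libraries, with mean differences in log2 ratio from -0.19 for Bax to Bcl2 to -1.04 for Pmaip1 to Mcl1. These differences follow from the changes of the single genes given above, so the 5 ratios are a description and add no separate evidence. The Bax ratios depended on the treatment of gene length. With the length trend removed, the difference for Bax to Bcl2 turned to 0.34, and that for Bax to Bcl2l1 went from -0.55 to -0.16. Bbc3 to Bcl2l1 went from -0.78 to -0.49 and Bcl2l11 to Mcl1 from -0.60 to -0.82, and Pmaip1 to Mcl1 was at -0.94.

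**Figure D4:**
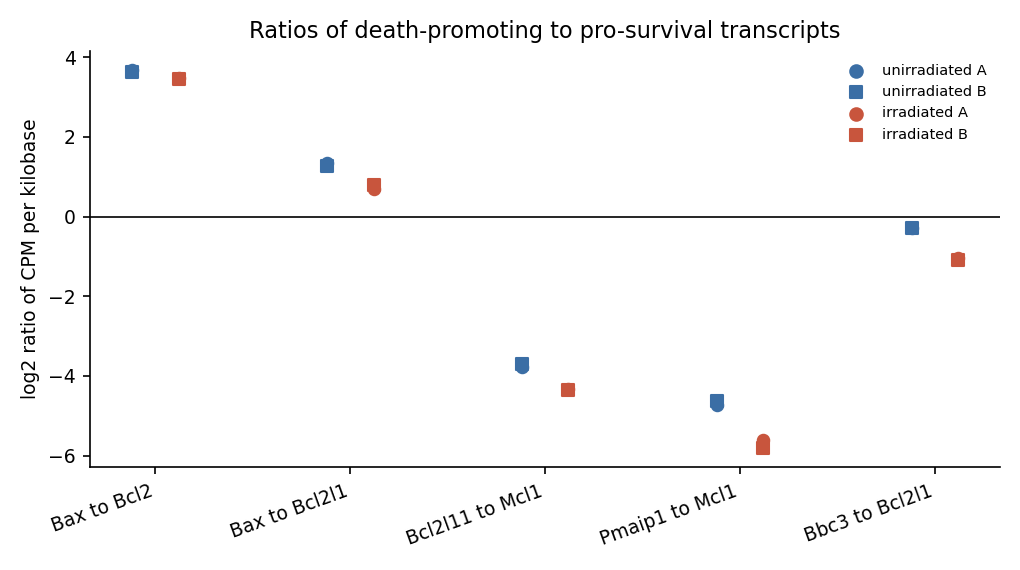
Log2 ratio of CPM per kilobase (vertical axis) for 5 pairs of a death-promoting and a pro-survival gene, by library, with circles for replicate A and squares for replicate B. Each red pair (irradiated) lies below its blue pair (unirradiated), by 1.04 for Pmaip1 to Mcl1.

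Family genes outside the 10 showed the largest changes of the family. Bmf, a BH3-only gene tied to the cytoskeleton and to loss of matrix contact (chromosome 2, 118528757 to 118549687), fell from 52.20 and 59.87 CPM to 17.68 and 17.71 CPM (log2 fold change -1.65, adjusted p = 6.15e-26, SE 0.0870). Bik, a BH3-only protein of the endoplasmic reticulum, fell from 13.18 and 14.16 CPM to 8.660 and 9.562 CPM (-0.57, adjusted p = 3.51e-04), which missed the threshold once the length trend was removed (-0.26). With these, 7 of 7 tested BH3-only genes were lower, beside 32.5% of all tested genes, and Hrk had too few counts to test. Without the length trend all 7 values stayed below 0, but Bad and Bik did not pass. Their median log2 fold change was -0.57, against -0.0042 for all tested genes.

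The remaining pro-survival genes did not share one direction. Bcl2l2, encoding BCL-W, fell from 43.43 and 46.76 CPM to 35.60 and 33.41 CPM (log2 fold change -0.39, adjusted p = 2.09e-05). Bcl2a1d, a gene of leukocytes, was at 3.520 and 1.133 CPM and then 4.631 and 5.286 CPM (1.00, adjusted p = 9.21e-04). That change was 2.14 without unirradiated A and 0.52, no longer past the threshold (adjusted p = 0.0844), without unirradiated B. Bcl2a1a and Bcl2a1b, its near-identical copies, did not pass (0.46 and 0.66) unless the length trend was removed (0.96 and 1.16), so single values of the 3 copies are uncertain. In the same libraries most macrophage and monocyte markers were higher, and most tested T and NK, B and plasma and neutrophil markers were lower, as given above. Whether these shifts bear on the Bcl2a1 genes was not tested. Over members and others, 3 of 7 tested pro-survival genes were higher and 1 lower, beside 33.9% and 32.5% of all tested genes. Bok, an effector-like gene, rose from 7.636 and 7.282 CPM to 12.27 and 12.47 CPM (0.73, adjusted p = 3.22e-05).

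Among 8 divergent relatives and BH3-like genes the median was -0.33, and 4 were lower, beside 32.5% of all tested genes. With the length trend removed, the 1 higher, Bcl2l13 (0.07), and 2 of the 4 lower, Bcl2l12 (-0.32 to -0.09) and Bnip3 (-0.33 to -0.14), did not pass. Bcl2l12 also missed the threshold without unirradiated A, unirradiated B or irradiated A, and both with DESeq2. These 3 were named after their values were seen. The largest changes were falls of Bnipl, from 91.69 and 90.13 CPM to 34.64 and 36.60 CPM (-1.35), and of Bcl2l14, from 23.68 and 23.46 CPM to 9.622 and 9.966 CPM (-1.26).

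Genes that act after the outer membrane is breached are given by list, beside the 66.4% of all tested genes that were called. Of 7 apoptosome and intermembrane genes 1 was higher and 1 lower. Apaf1, the scaffold that cytochrome c activates, rose from 17.24 and 16.91 CPM to 30.31 and 30.14 CPM (log2 fold change 0.82, adjusted p = 1.19e-10). Htra2, a mitochondrial protease that antagonises inhibitors of apoptosis, fell from 65.02 and 66.59 CPM to 33.74 and 33.85 CPM (-0.96). Of 5 caspases 3 were higher and 1 lower, with Casp6 at -0.82. The 3 higher became 1 without unirradiated A, without irradiated B or with DESeq2. Of 7 inhibitor of apoptosis genes 2 were higher and 2 lower, led by Naip2 (-1.17) and Birc3 (0.62), and Naip2 has close paralogs that can share reads. With the length trend removed 5 of these 7 were lower, and without unirradiated A or without irradiated A 1 was lower. Of 3 voltage-dependent anion channels 1 was higher, Vdac2 (0.14), which missed the threshold when unirradiated A (adjusted p = 0.0533), unirradiated B (adjusted p = 0.0506) or irradiated B (adjusted p = 0.0544) was left out.

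Upstream of the family, the gene for p53 itself rose while its targets Bbc3 and Pmaip1 fell. Trp53 was at 112.3 and 114.9 CPM and then 171.3 and 177.5 CPM (log2 fold change 0.62, adjusted p = 1.14e-16, SE 0.0519), a gene named after its values were seen. The median over 12 other p53 targets was 0.43, with 9 higher and 1 lower. With the length trend removed this median was 0.33, with 8 higher and 2 lower. These counts and those below stand beside 33.9% of all tested genes called higher and 32.5% called lower. The targets were led by the death receptor gene Tnfrsf10b (1.10) and Phlda3 (0.70), and 1 of the 12 passed the test for changes over 1.5-fold. The lower one was Perp (-0.40). Cdkn1a and Trp53inp1, both at -0.02, were not called, and these 3 genes were also named after their values were seen. Trp53inp1 was called lower (-0.17) with the length trend removed. Among the members, the p53 targets Bax, Bbc3 and Pmaip1 were at -0.21, -0.44 and -0.76. Of 15 transcription factors that act on family genes 7 were higher and 4 lower, led by E2f1 (1.15) and the NF-kB subunit Rela (0.72). The lower count was 2 without unirradiated A, where Trp73 (-1.72) and Myc (-0.15) did not pass, and 1 with DESeq2. With the length trend removed, Ddit3 (-0.05) and Myc (-0.04) did not pass and Stat3 turned from 0.10 to -0.13, and these 4 genes were named after their values were seen. In the death receptor arm that leads to Bid, 2 of 7 genes were higher and 1 lower, with Tnfrsf10b at 1.10 and Tradd at -0.31, the latter not past the threshold with DESeq2 (-0.28) or the length trend removed (-0.05). The other higher one, Ripk1 (0.25), named after its values were seen, did not pass without unirradiated B (0.15), without irradiated A (0.21), with DESeq2 (0.30) or with the length trend removed (0.04).

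Of 11 genes for turnover factors and kinases that act on family proteins, 3 were higher and 6 lower. Among all tested genes 33.9% were higher and 32.5% lower. Trim17, a ubiquitin ligase with MCL1 among its substrates, fell from 3.460 and 3.074 CPM to 0.421 and 0.646 CPM (log2 fold change -2.55, adjusted p = 2.90e-08, SE 0.380). Pim1, a kinase that phosphorylates BAD, fell from 117.9 and 129.8 CPM to 76.19 and 77.14 CPM (-0.69). Usp9x, a deubiquitinase that stabilises MCL1, was higher (0.63), Huwe1, an MCL1 ubiquitin ligase, was higher (0.36) and Fbxw7, another, was lower (-0.44), and these 3 were named after their values were seen. The other higher gene, Btrc (0.39), was also named after its values were seen. With the length trend removed, Huwe1 (0.07) and Btrc (0.12) missed the threshold, and 1 of the 11 was higher.

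**Figure D5:**
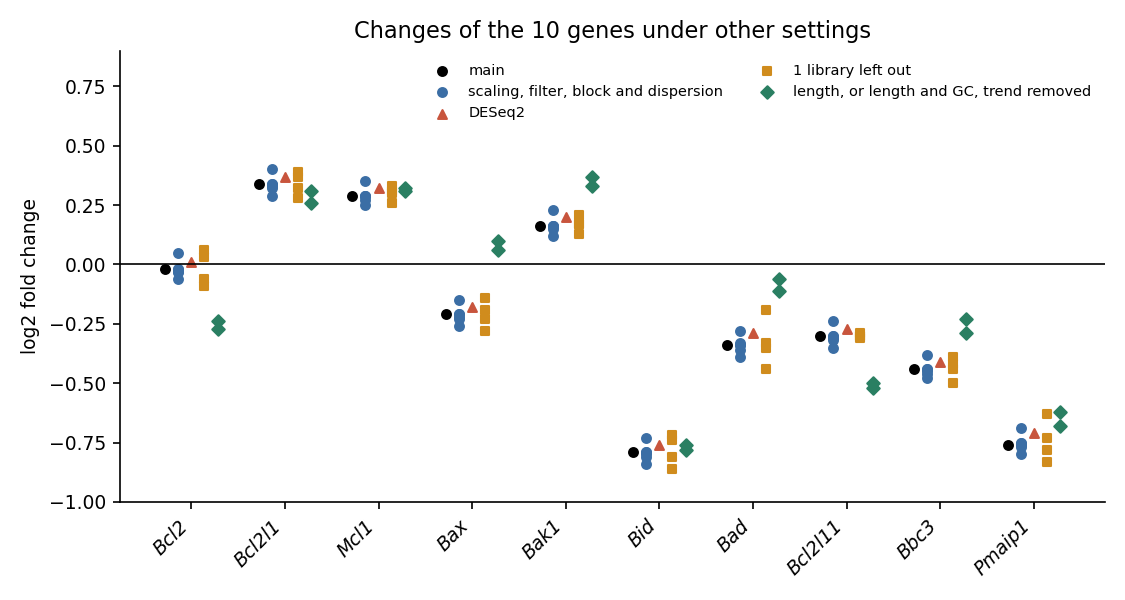
Log2 fold change of the 10 genes (vertical axis) in the reported fit (black) and under other settings, by gene. Values of Bid stay between -0.86 and -0.72, while removal of the length trend (green) moves Bax from -0.21 to 0.10 and Bcl2 from -0.02 to -0.24.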

How the data were processed

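The submitters' processing notes name mm10, DESeq2, HTSeq 0.6.1 and STAR 2.5, per the labels, with settings and annotation release not given in the sources used here. Libraries were non-directional and made from poly(A) RNA, per the labels' protocols. The authors deposited whole-number counts per gene, not normalized, with a gene length in bases that equals the exon union of GENCODE M21 for 98.01% of shared identifiers. Counts were tested with edgeR 4.0.16 (R 4.3.3, filterByExpr, TMM, quasi-likelihood fit without the legacy option, 2 residual and 59.82 median prior degrees of freedom). Each standard error is the size of the log2 fold change divided by the root of its F statistic. Within a group, the median chi-square of the difference between libraries was 2.106 (unirradiated) and 2.143 (irradiated) times that of counting alone. Between groups this ratio was 29.65 for the A libraries and 28.11 for the B libraries. The common coefficient of variation beyond counting was small, at 3.861%. All libraries entered the fit separately, and whether their spread is that of different animals was not tested. DESeq2 1.42.0, other scalings, filters and thresholds, a replicate block, leaving out each library and removal of length or GC trends (lowess, span 0.4) were alternatives. The trend with length and GC together, the ratios with a trend removed and the legacy fit were added after the data were seen. The functions were tested on simulated data. Members and gene lists were chosen with earlier results of these data known. Named genes are the 10 members and, per list, the 2 called genes with the largest change and a mean of at least 1 CPM, unless stated, and 1 of these is not reported here. No protein sequence was used here, and no sequence of Pmaip1.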

Additional observations from a re-analysis of the deposited data

How the results depend on the processing

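Over the 10 members and 15 alternatives each, 121 of 150 values kept their direction and their side of the threshold, 21 fell short of it, 2 newly passed and 6 changed sign. The looser threshold of 0.1 and the 1.5-fold test reuse the reported fold changes, so neither could change a sign. Members called at 0.05 stay called at 0.1 by construction. The sign changes were those of Bcl2, at 0.01 with DESeq2, 0.05 with no filter, 0.03 without unirradiated B and 0.06 without irradiated A (-0.09 to 0.06 over the fits without 1 library), and of Bax, at 0.10 and 0.06 after removal of the length trend and of the length and GC trends. Bid was called throughout. Bcl2l1, Mcl1, Bcl2l11, Bbc3 and Pmaip1 were lost only in the test for changes over 1.5-fold, which called 0 members higher and 1 lower, and 2033 of all genes higher and 1753 lower. Of 19643 genes tested, DESeq2 gave 4487 as higher and 3421 as lower. Its median log2 fold change, taken over every gene with any count, was 0.11 below that of the reported fit over its 15961 tested genes. With the letter as a replicate block, 5420 genes were higher and 5199 lower in place of 5409 and 5185, and the same number of members were called in each direction. Deviations of same-letter libraries correlated at 0.0111, so the letters were not taken as pairs. On CPM in place of CPM per kilobase, the mean difference in effector share was -1.43 in place of -2.69 percentage points. With the length trend, or the length and GC trends, removed, the difference in log2 ratio was 0.34 or 0.32 for Bax to Bcl2 (-0.19 as reported), -0.16 or -0.25 for Bax to Bcl2l1, -0.82 or -0.83 for Bcl2l11 to Mcl1 and -0.49 or -0.60 for Bbc3 to Bcl2l1, a comparison added after seeing the data. The lowest count of any member was 195. The cause of these differences was not tested.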
